A study of Mus musculus with 2 samples.

Results

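Of the 4681 YY1 peaks in mouse muscle stem cells (MuSCs), 501 (10.7%, 95% exact binomial interval 9.83 to 11.6) had their summit at a promoter shared by 2 protein-coding genes that are transcribed away from each other or through each other's start. A peak was counted when its summit lay within 1000 bp of annotated start sites of at least 2 protein-coding genes on opposite strands. The remaining peaks comprised 3276 at other protein-coding promoters, with the same 1000 bp window, and 904 elsewhere. The 501 peaks stood for 486 distinct gene pairs and 971 genes.

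In chromatin immunoprecipitation followed by sequencing (ChIP-seq), DNA that an antibody pulls down with its protein, here YY1, is sequenced, and sites of binding show as stacks of fragments. The study asked which sites YY1 occupies in MuSCs, the Pax7-expressing cells that rebuild damaged muscle. According to the methods, MuSCs were freshly isolated and pooled from several Ctrl mdx mice, while the labels describe cultured cells from wild-type mice. The mdx mouse lacks dystrophin and is a model of Duchenne muscular dystrophy. Ctrl mice carry Pax7CreERT2/R26YFP, a Cre driven from the Pax7 locus together with a fluorescent reporter, with Yy1+/+ and mdx, so that Cre and mdx were present but Yy1 was intact. The pool gave 1 YY1 library, and peaks were called against 1 background library, which the labels name input and the methods IgG and which is not analysed here. With no replicates, no value below carries an error between mice or libraries, no test across peaks was made, and all intervals cover counting error only. Expression was not measured in these files, so neither the identity of the cells nor the transcription of both genes of a pair could be checked from them.

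A bidirectional promoter is a stretch of DNA from which a pair of genes start in opposite directions, and many such pairs encode housekeeping proteins and lie in CpG islands. YY1 is a zinc-finger protein that can activate or repress transcription, contacts Polycomb and chromatin-remodelling proteins, helps to join promoters to enhancers, and binds at or just downstream of start sites through the core ATGGC. The promoter shared by Surf1 and Surf2 is a textbook example of a bidirectional promoter with a YY1 site.

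The stretches between the start sites of pairs with strongly enriched peaks, and of the textbook pair Hspd1 and Hspe1, are shown first, because they are the DNA that both genes share. They are read 5′ to 3′ on the plus strand of mm10 from the RefSeq genome of the same build, from the base after the start of the minus-strand gene to the base before the start of the plus-strand gene, and contain no annotated exon. Capitals mark matches, on either strand, to AANATGGC (YY1), CCGGAAG (ETS factors), GCGCATGCG (NRF1), CCAAT (NFY), GGGCGG (SP and KLF factors), TGACGTCA (CREB and ATF factors) or CACGTGAC (an E-box), and neighbouring matches run together.
Thap4/Atg4b, chr1:93754781-93754904: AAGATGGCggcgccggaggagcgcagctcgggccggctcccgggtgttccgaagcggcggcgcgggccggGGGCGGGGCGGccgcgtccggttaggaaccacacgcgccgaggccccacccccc
Phf7/Bap1, chr14:31251318-31251449: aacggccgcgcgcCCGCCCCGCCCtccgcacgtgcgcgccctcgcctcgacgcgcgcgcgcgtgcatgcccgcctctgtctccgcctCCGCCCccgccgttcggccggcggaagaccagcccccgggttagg
Rnf166/Ctu2, chr8:122476065-122476142: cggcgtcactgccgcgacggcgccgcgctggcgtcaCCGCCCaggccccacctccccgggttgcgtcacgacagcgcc
Erp29/Tmem116, chr5:121452507-121452708: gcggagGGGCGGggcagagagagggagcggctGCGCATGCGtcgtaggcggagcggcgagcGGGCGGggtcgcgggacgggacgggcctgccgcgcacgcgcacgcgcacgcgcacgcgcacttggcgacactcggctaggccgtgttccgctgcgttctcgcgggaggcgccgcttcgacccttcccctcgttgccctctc
Pole3/4933430I17Rik, chr4:62525069-62525368: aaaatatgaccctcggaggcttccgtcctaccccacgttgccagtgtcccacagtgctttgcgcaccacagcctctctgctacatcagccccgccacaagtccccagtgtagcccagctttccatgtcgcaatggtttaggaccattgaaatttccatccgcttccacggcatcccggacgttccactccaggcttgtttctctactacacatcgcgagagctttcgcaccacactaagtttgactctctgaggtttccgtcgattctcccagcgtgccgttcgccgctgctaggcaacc
Abce1/Anapc10, chr8:79711741-79711819: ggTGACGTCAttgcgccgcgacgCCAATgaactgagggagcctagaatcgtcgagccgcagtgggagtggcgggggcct
Hspd1/Hspe1, chr1:55088025-55088131: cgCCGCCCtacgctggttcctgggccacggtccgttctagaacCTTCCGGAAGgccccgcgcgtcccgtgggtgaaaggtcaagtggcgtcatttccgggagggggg

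Such exon-free spacers of 30 to 300 bases were read at 189 of the peaks, with chromosome 18 left out. A few spacers, such as that of Utp18 and Mbtd1, served 2 peaks and were counted at each, so the intervals are slightly too narrow. SP and KLF boxes were the most frequent of the searched words, in 107 spacers (56.6%, interval 49.2 to 63.8), followed by CCAAT in 49 (25.9%, 19.8 to 32.8) and CCGGAAG in 29 (15.3%, 10.5 to 21.3). AANATGGC was in 4 of the 189 spacers (2.12%, 0.580 to 5.33). The spacer of Thap4 and Atg4b was 1 of these, and its motif began at the first base after the Thap4 start. The spacer of Pole3 and 4933430I17Rik was the opposite case, with none of the 7 words in 300 bases. In all, 142 of the 189 spacers held at least 1 of the words. The words differ in length, and shorter ones match more readily. The spacers of pairs without a peak were not searched, so these shares are not read as a trait of the pairs with a peak.

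The rule limits the spacing of the start sites to 2000 bp, and within it most were much closer. Of the 498 annotated pairs with a summit, 197 had starts at most 100 bp apart, and of all 1313 annotated pairs, bound or not, 443 did. At 405 peaks (80.8%, 77.1 to 84.2) the genes were divergent, with start sites a median of 156 bp apart (range 2 to 1256 bp). At the other 96 peaks the start sites overlapped, each gene starting inside the other, and were a median of 259 bp apart (2 to 979 bp). Spacing was taken between the annotated starts nearest to the summit. By this measure the closest starts were 2 bp apart, in the divergent pair Map4k5 and Atl1, which encode a stress-pathway kinase and an endoplasmic reticulum GTPase, and at 1 of the 2 peaks of Capza1, which encodes an actin-capping subunit, and St7l, where the starts nearest to the summit overlapped. These peaks had fold enrichments of 6.30 and 3.37. At the other peak of Capza1 and St7l (3.78-fold) the nearest starts were divergent and 562 bp apart. The widest divergent pair was Samd4b and Gmfg, with starts 1256 bp apart and a fold enrichment of 3.60.

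Most YY1 summits lay close to a start site. The median distance from the summit was 58 bp to the nearer start and 210 bp to the farther start. The nearer start was within 100 bp at 333 peaks (66.5%, 62.1 to 70.6). Among the 3276 other peaks at coding promoters the nearest start was within 100 bp at 47.9% (46.1 to 49.6), with a median distance of 107 bp, but paired promoters have starts of at least 2 genes to be near to. Both starts were within 200 bp at 237 peaks (47.3%, 42.9 to 51.8). The summit was nearer to the minus-strand gene at 251 peaks, nearer to the plus-strand gene at 249 and equally far at 1.

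The summit lay between the start sites at 187 peaks, or 37.3% of all (33.1 to 41.7) and 46.2% of the divergent ones. It lay downstream of the start of exactly 1 gene at 265 peaks (52.9%, 48.4 to 57.3), of which 132 were inside the minus-strand gene and 133 inside the plus-strand gene. At 49 peaks, all of overlapping pairs, it lay downstream of both starts. In terms of annotation, 259 summits (51.7%) were in an untranslated exon, 62 (12.4%) in a coding exon, 43 (8.58%) in an intron and 137 (27.3%) outside coding transcripts. The plot of summit positions shows this as a cloud of points around the crossing of the start-site lines. The farthest counted starts were those of Agrp and Ctcf, and Btf3l4 and Txndc12, with the farther start 986 and 973 bp away and fold enrichments of 7.04 and 5.71. Just outside were Smim7 and Tmem38a, 9130023H24Rik and Armc5, and Mindy2 and Gm10642, at 1009, 1018 and 1024 bp, with 3.94, 6.05 and 5.55.

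**Figure D1:**
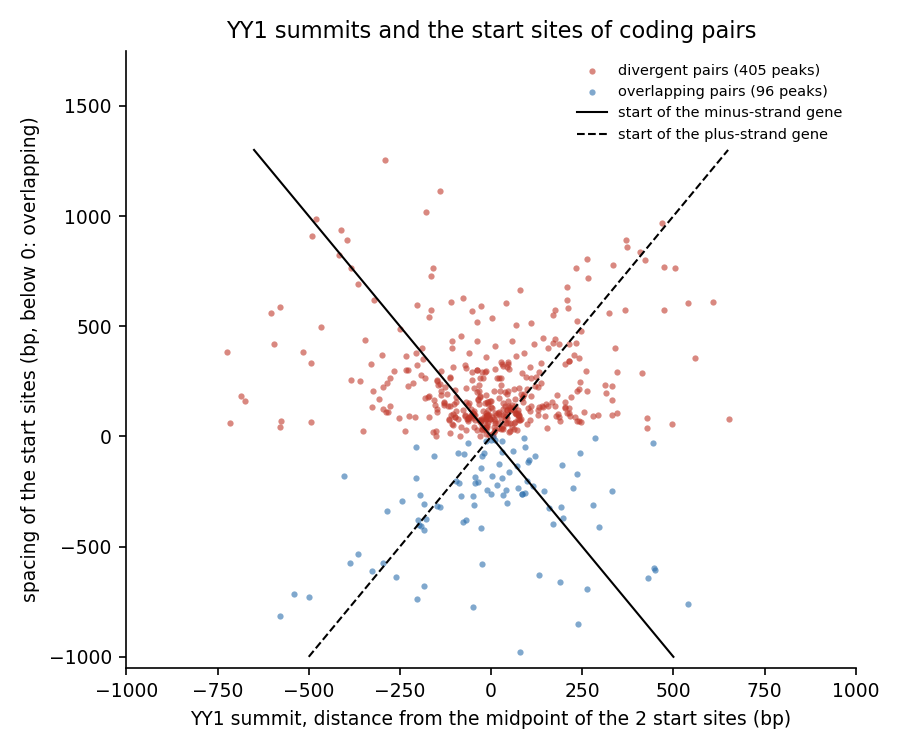
Position of each of the 501 YY1 summits relative to the midpoint of the pair's start sites (horizontal, bp) against the spacing of the start sites (vertical, bp, below 0 for overlapping starts). Red points are the 405 divergent and blue points the 96 overlapping pairs, and the solid and dashed lines mark the starts of the minus-strand and plus-strand genes. Of the summits, 312 (62.3%) lay within 150 bp of the midpoint.

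A YY1 summit was found at a sizeable minority of all shared promoters. The annotation holds 1313 opposite-strand coding pairs whose closest starts are at most 2000 bp apart, and 498 of them (37.9%, 35.3 to 40.6) had a summit within 1000 bp of both starts. Divergent pairs had 402 of 1059 (37.96%, 35.0 to 41.0) and overlapping pairs 95 of 253 (37.5%, 31.6 to 43.8), and the 1 pair whose closest annotated starts share a base also had a summit. For pairs with starts up to 100 bp apart the share was 44.5% (39.8 to 49.2), for 101 to 200 bp 40.5% (34.9 to 46.3), for 201 to 300 bp 43.0% (34.9 to 51.3), for 301 to 500 bp 45.4% (36.6 to 54.3) and for 501 to 1000 bp 36.8% (28.9 to 45.2). These intervals all overlap, and no order was read from them. Beyond 1000 bp the share was 2.70% (0.741 to 6.78), but there the part of the promoter that is within 1000 bp of both starts shrinks by construction.

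Genes in close pairs carried a YY1 summit more often than genes outside them. Of all 21864 protein-coding genes, 18.7% had a summit within 1000 bp of a start. Among the 2295 genes of pairs with starts at most 1000 bp apart the share was 43.7% (41.6 to 45.7), and among the other 19569 genes it was 15.8% (15.3 to 16.3). CpG content moved with pairing, since 80.6% of the paired and 41.9% of the other genes had a CpG-rich promoter (a CpG observed-to-expected ratio of at least 0.6 and a GC content of at least 50% within 500 bp of the start). Among CpG-rich promoters alone the shares were 50.6% (48.3 to 52.9) and 33.7% (32.7 to 34.7), and among the others 14.8% (11.6 to 18.4) and 2.94% (2.63 to 3.26). With CpG-rich promoters of genes with 1 annotated start site, they were 47.8% (44.3 to 51.3) and 30.9% (29.4 to 32.4). The genes of a pair share their peak, so that a summit near 1 gene is usually also counted for its partner, and the intervals are too narrow for this reason. How much of the difference comes from that sharing was not tested.

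**Figure D2:**
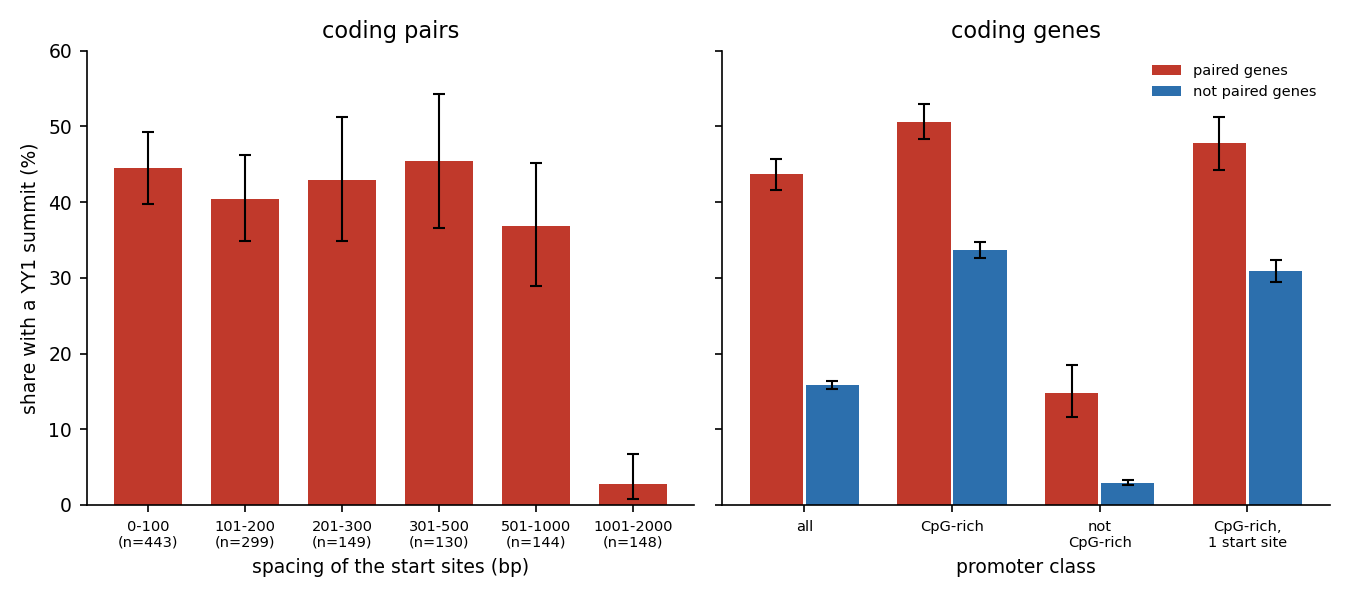
Left, share of annotated opposite-strand coding pairs with a YY1 summit within 1000 bp of both starts (vertical, %) by the spacing of the starts (horizontal, bp; n is the number of pairs). Right, share of protein-coding genes with a summit within 1000 bp of a start, for genes in pairs (red) and other genes (blue), by promoter class. Bars are shares and whiskers are 95% exact binomial intervals. The share stayed between 36.8% and 45.4% up to a spacing of 1000 bp, and paired genes stood above other genes in each promoter class shown.

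The enrichment at paired promoters was like that at other promoters, apart from more peaks at the upper end. Fold enrichment here is the ratio of fragments at the summit to the local background after 1 was added to both, as the authors' peak caller computed it. Its median was 5.13 (5.05 to 5.38), with quartiles of 4.32 and 6.30 and a range of 2.70 to 11.8. The other coding-promoter peaks had the same median, 5.13, with quartiles of 4.34 and 5.99. A fold enrichment of at least 5 was reached by 287 of the 501 peaks (57.3%, 52.8 to 61.7), by 57.3% of the other coding-promoter peaks and by 53.9% of all peaks. A fold enrichment of at least 8 was reached by 42 peaks (8.38%, 6.11 to 11.2), against 4.55% (3.86 to 5.32) of the other coding-promoter peaks and 5.02% of all peaks. The q-value was below 0.01 at 459 peaks (91.6%) and at 91.6% of all peaks.

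These values rest on few fragments. The summits held a median of 15 fragments (quartiles 13 and 18, range 9 to 35) over a median local background of 1.98. A change of 1 fragment therefore moves the fold enrichment visibly, and many peaks share exactly the same value. Peaks were a median of 375 bp wide (362 bp at other coding promoters), and the 501 bases around the summit had a median GC content of 66.1% (69.1%). Divergent and overlapping pairs had median fold enrichments of 5.13 and 5.18.

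**Figure D3:**
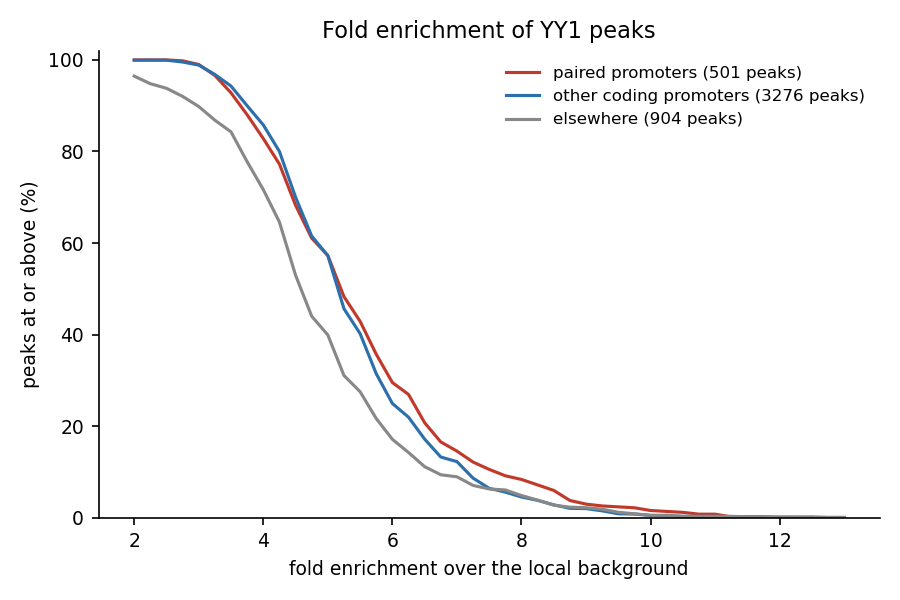
Share of peaks (vertical, %) at or above each fold enrichment over the local background (horizontal), for 501 peaks at paired coding promoters (red), 3276 at other coding promoters (blue) and 904 elsewhere (grey). At a fold enrichment of 4 the red curve lies slightly below the blue one, at 82.8% and 85.8%. The value of 5 was reached by 57.3% of the peaks of both kinds, and at 8 the curves stand at 8.38% and 4.55%.

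The highest enrichment was at the promoter of Htra2, a mitochondrial serine protease, and Aup1, a lipid-droplet protein that takes part in protein degradation at the endoplasmic reticulum (chr6:83054470-83054803). It reached 11.8-fold, from 29 fragments over a background of 1.54 (before 1 was added to both). The starts of Htra2 and Aup1 overlap by 50 bp, and the summit lay in an untranslated exon. No AANATGGC was within 100 bp of this summit.

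Next came 3 promoters with 27 fragments and a fold enrichment of 11.04. Thap4 encodes a THAP zinc-finger protein and Atg4b the protease that processes LC3 proteins in autophagy. Their starts were 125 bp apart, and the summit (chr1:93754532-93755120) was 8 bp from the Thap4 start, on the last base of the AAGATGGC printed above. Bap1 is the deubiquitinase that removes ubiquitin from histone H2A, and Phf7 a PHD-finger protein of the male germ line. The summit between them (chr14:31251165-31251705) was 14 bp upstream of Bap1. Shld2, a subunit of the shieldin complex at DNA double-strand breaks, and Glud1, the mitochondrial glutamate dehydrogenase, start 361 bp apart (chr14:34310324-34310730).

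Other strong peaks had lower fold enrichments. Rnf166, a RING ubiquitin ligase, and Ctu2, which thiolates transfer RNA, had a fold enrichment of 10.7. Erp29, a folding factor of the endoplasmic reticulum, and Tmem116 reached 10.3, and Mettl25 and Ccdc59, whose starts overlap by 311 bp, reached 10.1. Pole3, a histone-fold subunit of DNA polymerase epsilon, and 4933430I17Rik followed with 9.86 and with 34 fragments, the most among these 10 peaks. The tenth, at the predicted genes Gm3417 and 9030025P20Rik on chromosome 17, had 9.86 as well, the same value as Hook3 and Rnf170 below it. Every 32-base stretch near the Gm3417 summit occurs more than once in the genome, in up to 3 copies, and whether its reads were placed uniquely was not tested.

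At the lower end were Ndufs1 and Eef1b2, a complex I subunit and a translation elongation factor, with a fold enrichment of 2.70. This peak held 23 fragments, more than most, over the highest local background of all the paired promoters, 7.90. Bola1, a mitochondrial iron-sulphur protein, and the histone gene Hist2h2ab had 2.83. Hnrnpdl, an RNA-binding protein, and Enoph1, an enzyme of methionine salvage, had 2.86 at the weaker of their 2 peaks, tied with Pip4k2a and 4930426L09Rik and with Rbbp4 and Zbtb8os.

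The YY1 motif AANATGGC, searched on both strands within 100 bp of the summit, was present at 50 of the 501 peaks (9.98%, 7.50 to 12.9). Its share was 7.17% (6.31 to 8.11) at other coding-promoter peaks, 6.63% over all peaks and 5.37% (5.07 to 5.68) in windows of the same length at the start sites of all protein-coding genes. AAGATGGC, the form with G at the free position, made up 37 of the 54 motifs found. It was at 7.39% of the paired-promoter peaks (5.25 to 10.04), 3.54% of the other coding-promoter peaks (2.93 to 4.23) and 3.61% of all peaks. The bare core ATGGC was at 33.1% (29.0 to 37.4) and 30.2% (28.6 to 31.8). A window without the word says only that these letters were absent from it.

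The 5 most enriched peaks with a motif, the 4 peaks with a pair of motifs, the start codons of Mrpl49 and Lsm7 and the least enriched peak are shown for their motif and its flanks, as 30 bases on the strand that reads AANATGGC, with the motif in capitals.
Thap4/Atg4b, chr1:93754770-93754799, plus strand: gtctgtacggaAAGATGGCggcgccggagg
Mettl25/Ccdc59, chr10:105841488-105841517, plus strand: caccgtggaaaAAGATGGCgccttcgcggc
Srr/Smg6, chr11:74925902-74925931, plus strand: cagccgccgcgAAGATGGCggaggggttgg
Rer1/Morn1, chr4:155086338-155086367, plus strand: ctccagccgccAAGATGGCcgcggggcggg
Abce1/Anapc10, chr8:79711629-79711658, plus strand: cgccaccggcaAAGATGGCggtgcacagcc
Gm10762/Zc3h6, chr2:128967381-128967410, minus strand: aggcggctcagAAAATGGCgccggccgcaa
Gm10762/Zc3h6, chr2:128967412-128967441, minus strand: ttctcctcaccAACATGGCggcacccgaaa
Mkks/Slx4ip, chr2:136892040-136892069, minus strand: tgcccaaacgaAAAATGGCttctgtcgatg
Mkks/Slx4ip, chr2:136892149-136892178, minus strand: cgcccaaacacAAGATGGCattatcgactt
Crat/Ptpa, chr2:30415978-30416007, plus strand: cgccccgcacaAACATGGCtgccagcgccg
Crat/Ptpa, chr2:30416052-30416081, plus strand: cgccccgcaccAAGATGGCcgctgcctcgg
Ift80/Smc4, chr3:69004874-69004903, plus strand: cgaacggcccgAAGATGGCggtgggactcg
Ift80/Smc4, chr3:69004976-69005005, minus strand: tccttcactcgAAAATGGCgcctaaaatcc
Mrpl49/Fau, chr19:6057721-6057750, minus strand: gttgaggcgccAAGATGGCagcagcggtgt
Lsm7/Sppl2b, chr10:80855171-80855200, minus strand: cgtgaggcgacAAGATGGCggtgagcatgt
Ndufs1/Eef1b2, chr1:63176654-63176683, plus strand: gccgctaagtcAATATGGCggccacggcaa

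Besides Thap4 with Atg4b and Mettl25 with Ccdc59, the most enriched peaks with a motif belonged to Srr and Smg6 (8.75-fold), Rer1 and Morn1 (8.28-fold) and Abce1 and Anapc10 (7.49-fold). Srr encodes serine racemase and Smg6 the endonuclease of nonsense-mediated decay. Rer1 returns proteins to the endoplasmic reticulum, Abce1 recycles ribosomes and Anapc10 is a subunit of the anaphase-promoting complex. All 5 carried AAGATGGC. A pair of motifs was found at 4 peaks, those of Gm10762 and Zc3h6 (6.78-fold), Mkks and Slx4ip (5.93-fold), Crat and Ptpa (5.38-fold) and Ift80 and Smc4 (4.20-fold).

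The motif lay more often inside the gene read in its own direction than inside the partner. Every pair has 1 gene transcribed in the direction in which AANATGGC reads and 1 transcribed the other way. Of the 54 motifs, 35 (64.8%, 50.6 to 77.3) were downstream of the start of the gene read in the same direction, and 13 (24.1%, 13.5 to 37.6) were downstream of the start of the gene read in the opposite direction. The 6 motifs downstream of both starts are in both counts, and the remaining 12 of the 54 lay between the start sites. Within the first 50 bp of the gene there were 19 and 5. At 21 of the 54 motifs the ATG is a start codon, as described below, which places them inside the gene read the same way by definition. All of them are among the 35, and without them the contrast was much smaller in both counts. At the other coding-promoter peaks, 65 of 246 motifs (26.4%, 21.02 to 32.4) were within 50 bp downstream of the nearest start and read the same way, and 23 (9.35%, 6.02 to 13.7) read the opposite way. Counted in that manner, by the nearest start, the paired promoters had 16 (29.6%, 17.98 to 43.6) and 5 (9.26%, 3.08 to 20.3).

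At some sites the ATG inside the motif was also the first codon of the gene. At 21 of the 54 motifs (38.9%, 25.9 to 53.1) it was the annotated start codon of a gene read in the same direction, against 68 of 246 (27.6%, 22.2 to 33.7) at other coding-promoter peaks and 0 of 26 at peaks elsewhere (upper bound 13.2%). The A before and the G after this ATG are also the bases that favour the start of translation, and their part in the count was not tested. In the gene of the ribosomal protein Mrpl49, the motif centre was 49.5 bp downstream of the start, and the summit lay in the 59 bp between Mrpl49 and Fau, itself a ribosomal protein gene. In Lsm7, a subunit of the Lsm ring that binds U6 RNA, it was 23.5 bp downstream. In Smg6 and Ccdc59 the start codon was in the AAGATGGC printed above.

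**Figure D4:**
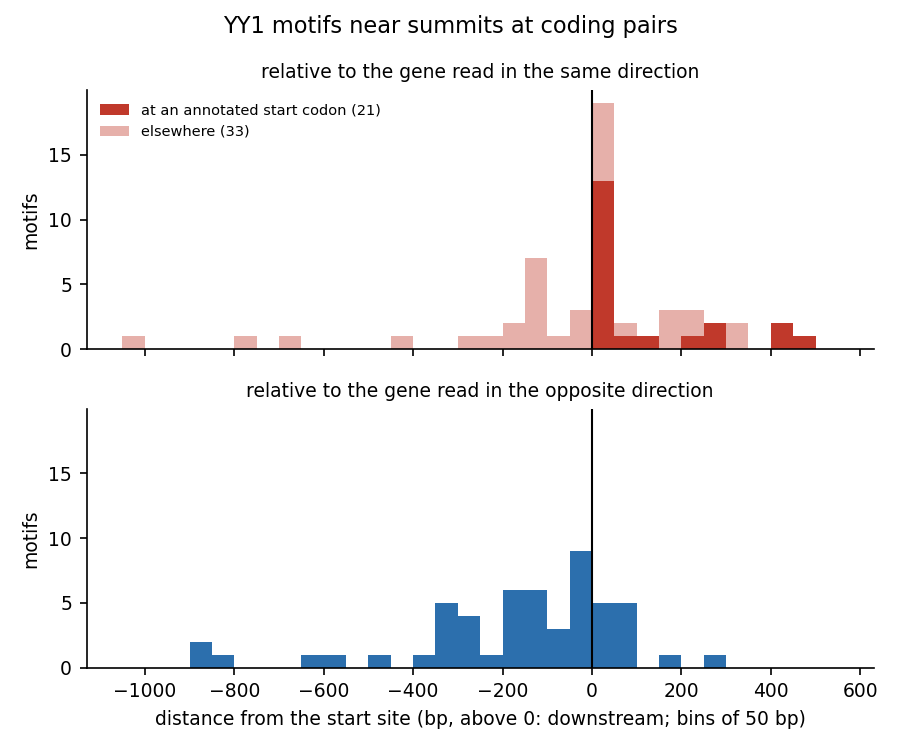
Distance of the 54 AANATGGC motifs from the start site (horizontal, bp, above 0 inside the gene, bins of 50 bp) of the gene read in the same direction (top) and of the partner read in the opposite direction (bottom). Dark bars are the 21 motifs whose ATG is an annotated start codon and pale bars the other 33, and the vertical axis counts motifs. The dark bars lie inside the gene of the top panel by definition. In the top panel 19 motifs fall in the first 50 bp of the gene, against 5 in the bottom panel. The motif 836.5 bp inside Atp5f1, the partner of Wdr77, is beyond the range of the bottom panel and is not drawn.

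Other promoter words were compared in the same windows. CCGGAAG, the ETS word, was at 90 of the 501 peaks (17.96%, 14.7 to 21.6), 13.0% of other coding-promoter peaks (11.9 to 14.2) and 11.7% of all peaks, while all coding start sites had 9.71% (9.32 to 10.1). CCAAT was at 20.4% (16.9 to 24.2) and 16.0% (14.7 to 17.3) of the peaks and at 27.8% of all coding start sites. GGGCGG was less frequent at paired than at other coding-promoter peaks, with 57.7% (53.2 to 62.1) and 66.8% (65.1 to 68.4). The GC content was also higher at the other coding-promoter peaks. Over all peaks GGGCGG was at 59.4%, and at all coding start sites at 41.6%, below the paired-promoter peaks. GCGCATGCG was at 4.99% and 3.54%, TGACGTCA at 2.59% and 2.32%, and CACGTGAC at 2.99% and 3.24%, with intervals that overlap for each word.

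Among the textbook bidirectional pairs, 4 of 15 had a peak, beside 37.9% of all annotated pairs. The basement-membrane collagen genes Col4a1 and Col4a2 (chr8:11312649-11313157), whose starts overlap by 21 bp, had the strongest, 6.31-fold, with the summit 3 bp upstream of the Col4a2 start. The purine-synthesis genes Ppat and Paics had 5.07-fold, with the summit 17 bp inside Paics (chr5:76951232-76951811). The mitochondrial chaperonin genes Hspd1 and Hspe1 had 3.03-fold, from 14 fragments over 3.95, and the summit was 160 bp inside Hspe1 (chr1:55087996-55088374) rather than in the 107-base spacer printed above with its ETS words. None of the 4 had AANATGGC within 100 bp of the summit.

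Surf1 and Surf2 themselves had no peak in this list. The nearest summit was 5708 bp away, in the same cluster of housekeeping genes, at the shared promoter of Med22 and Rpl7a, a Mediator subunit and a ribosomal protein (4.16-fold, 12 fragments, chr2:26910601-26911151). The pairs Atm and Npat, Gart and Son, Prkdc and Mcm4, Col4a3 and Col4a4, Col4a5 and Col4a6, Sirt3 and Psmd13, Mrps12 and Sars2, Wrn and Purg, Tk1 and Afmid, and Ercc8 and Ndufaf2 had none either, with the nearest summits 23080 to 4732120 bp away.

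Groups of genes were compared by how many of their members in opposite-strand pairs had a paired-promoter peak, beside 983 of 2576 (38.2%) for all coding genes in such pairs. Genes were assigned to groups by their symbols. The groups are small, and partners share peaks, which makes the intervals too narrow, so no group is called different.

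Genes of the translation machinery had shares of 50% or more. Of the mitochondrial ribosomal proteins, 34 of 78 were in pairs and 18 of these (52.9%, 35.1 to 70.2) had a peak. The strongest were Mrpl40 with Hira (7.49-fold), Mrpl49 with Fau (6.76-fold) and Mrpl2 with Klc4 (6.40-fold). Of 16 cytosolic ribosomal protein genes in pairs, 8 had a peak, led by Rpl9, opposite the lipoate synthase gene Lias (8.28-fold), and Rps18, opposite Vps52 (6.83-fold). Aminoacyl-tRNA synthetases, which charge transfer RNA, had 5 of 10, with Wars (6.31-fold) and Ears2 (5.84-fold) the strongest.

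In genes for making and processing RNA, splicing factors had 17 of 31 (54.8%, 36.03 to 72.7), the highest share of the 14 groups, led by Sf3a2 with Plekhj1 (7.73-fold), Hnrnpa2b1 with the heterochromatin protein gene Cbx3 (6.39-fold) and Lsm3 with the repair gene Xpc (6.31-fold). RNA polymerase subunits and general transcription factors had 14 of 30 (46.7%, 28.3 to 65.7). Of these, Taf9, a TFIID subunit that starts together with Rad17 and Ak6, reached 9.75-fold, Polr2i with Tbcb 8.64-fold and Gtf2h5 with Serac1 7.68-fold.

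In protein quality control, 6 of 11 proteasome genes and 12 of 31 chaperone genes had a peak. Psmc2, a proteasome ATPase, and Dnajc2, a ribosome-bound chaperone, share 1 promoter (6.72-fold), and Cct7, a subunit of the CCT chaperonin, had 7.49-fold opposite Pradc1. Vesicle traffic genes had 18 of 37 (48.6%, 31.9 to 65.6), with Snx17 opposite Eif2b4 (8.68-fold) and Arf6 opposite Gm9887 (7.84-fold) the strongest, and a promoter at which both genes, Exoc5 and Ap5m1, belong to this group (6.40-fold). Oxidative phosphorylation genes had 11 of 27 (40.7%, 22.4 to 61.2), from Uqcrh of complex III opposite Lrrc41, with 17 fragments over a background of 1.57, down to Ndufs1 (2.70-fold).

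The groups below the background share were those of DNA repair, histones, replication and collagens. DNA repair genes had 10 of 38 (26.3%, 13.4 to 43.1), of which Shld2 (11.04-fold) and Xpc (6.31-fold) were the strongest. Brca1 and Nbr1 had 4.29-fold. Clustered histone genes had 8 of 38 (21.1%, 9.55 to 37.3), but these 8 genes sit at only 4 promoters, so the interval is too narrow to set against 38.2%. The most enriched was the pair Hist1h2ah and Hist1h2bk (5.99-fold). Histone genes are near-identical copies. At Hist1h2ah and Hist1h2bk, 72.9% of the 32-base stretches near the summit occur more than once in the genome. At Hist1h2an and Hist1h2bp every stretch near both summits does. The placement of reads at these promoters was not tested. DNA replication and cell cycle genes had 8 of 24 (33.3%, 15.6 to 55.3), with Pole3 (9.86-fold) and Anapc10 (7.49-fold) first, and collagens 2 of 6.

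Few muscle genes had a shared promoter. Of 53 muscle and satellite cell genes, 2 (3.77%) were in an opposite-strand pair, beside 11.8% of all protein-coding genes, and 1 of them had a peak, Mylpf, the fast myosin regulatory light chain, opposite Tbc1d10b (6.56-fold, chr7:127208272-127208711).

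**Figure D5:**
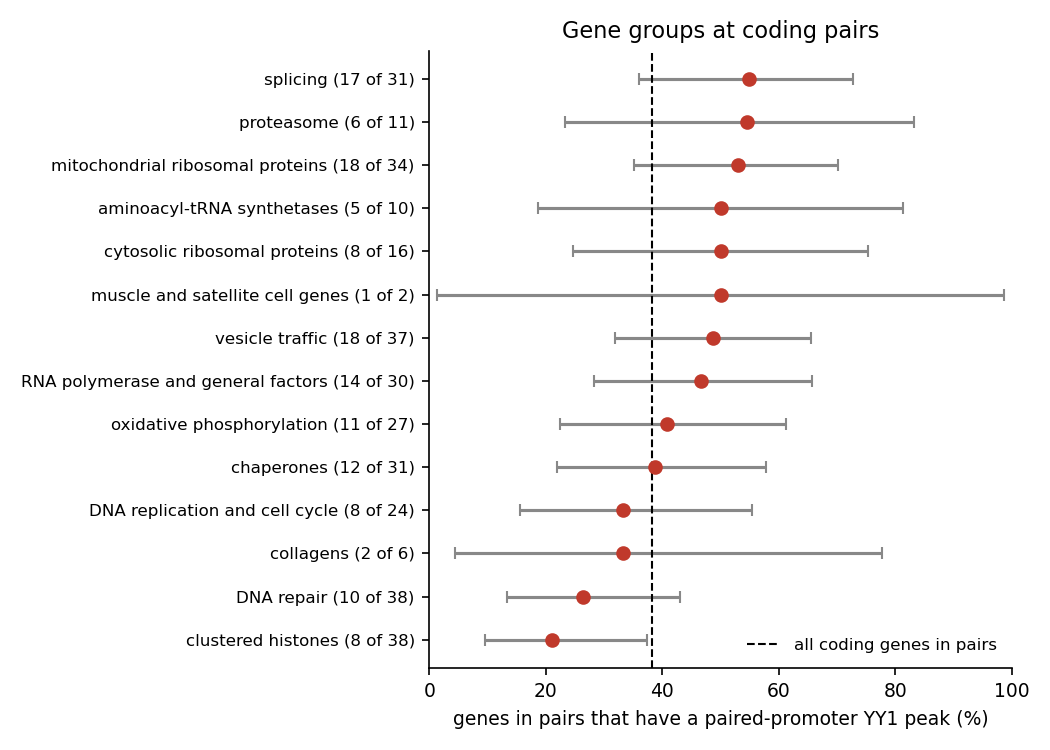
Share of genes in opposite-strand coding pairs that had a paired-promoter YY1 peak (horizontal, %), for 14 groups of genes (vertical, with counts). Points are shares, whiskers 95% exact binomial intervals, and the dashed line is the share of all coding genes in pairs, 38.2%. Shares run from 21.1% for clustered histones to 54.8% for splicing. Partners share peaks, so the whiskers are too narrow.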

How the data were processed

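ChIP-seq of YY1 was analysed from 1 library of pooled MuSCs. Per the methods, the authors aligned trimmed reads to mm10 (Bowtie2), removed redundant reads and ran MACS2 with a p-value limit of 0.0001. The tool versions are not given in the sources used here. The deposited list gives positions, a summit, the fold enrichment (a ratio of fragments to the local background, with 1 added to both), −log10 p-values and q-values, and an integer score, which was not used. These p-values are Poisson values within 1 pair of libraries. The numbers of fragments and background were recovered from fold enrichment and p-value.

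Summits were compared with start sites of protein-coding transcripts in GENCODE M21 (basic), of the same build. Members, gene lists and named genes were chosen with earlier results of these data known. Named are the 10 peaks with the highest fold enrichment, the 5 highest with AANATGGC, the 3 lowest, the closest and widest pairs, peaks with 2 motifs, 15 textbook pairs, and 2 to 4 leading genes of each list. Some pairs that this rule names are not reported here. Pairs named for the window edge, for ties, for start codons, for repeated sequence and under other observations, and Brca1 with Nbr1, Ndufs1 among the oxidative phosphorylation genes, and Exoc5 with Ap5m1, were chosen after their values were seen. Shares have 95% Clopper-Pearson intervals and medians binomial order-statistic intervals. Sequence was called repeated where 32-base stretches within 100 bp of a summit occur elsewhere in the genome. Member calls, fragment recovery and motif search were tested on simulated data. All 200 summits placed at paired promoters and 0 of 200 placed far from start sites were called, and all 200 planted motifs and 500 fragment numbers were recovered. Software was samtools 1.23.1, pysam 0.24.0, scipy 1.17.1, matplotlib 3.10.9, pandas 2.3.3 and numpy 2.4.6 under Python 3.11.15. Alternatives were other windows, start sites, limits, arrangements and motif forms, and, chosen after seeing the data, the comprehensive annotation and leaving out summits in repeated sequence.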

Additional observations from a re-analysis of the deposited data

How the results depend on the processing

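No paired analysis was possible because the data hold 1 YY1 library, and for the same reason no replicate could be left out. Most alternatives kept the values within their intervals. The 501 peaks became 287 at a fold enrichment of at least 5, where the share of pairs with a summit was 22.5%, the median fold enrichment 6.05 and the share of summits between the starts 41.8%, as a limit on that value must change the first 3. The share of pairs with a summit was 35.0% with a window of 2000 bp and 35.0% at q below 0.01. Summits between the starts made up 28.7% with the outermost start site of each gene and 27.9% with the outermost start sites of the same pairs, since an outermost start lies upstream of the other starts of its gene. The motif share was 5.19% within 50 bp, 18.2% within 200 bp, 7.39% for AAGATGGC and 33.1% for the core ATGGC. With the comprehensive annotation 539 peaks counted, and 487 without summits in repeated sequence. Few fragments per summit and a single pool of mice limit every value: peaks under the authors' limit are not listed, and variation between mice is unknown.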

Other observations

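At 15 pairs there were 2 separate peaks. The promoter of Pradc1 and Cct7 had summits of 7.49-fold and 3.94-fold, L3hypdh and Jkamp of 5.92-fold and 3.94-fold, and Hnrnpk, which encodes an abundant RNA-binding protein, and Rmi1, a partner of the Bloom helicase, of 4.85-fold and 3.43-fold. At 12 peaks a further coding gene started within 1000 bp. The most enriched of these were Hook3 with Rnf170 (9.86-fold), Rad17 with Ak6 (9.75-fold), where Taf9 also starts, and the predicted gene Gm3448 with Ermard (8.60-fold). On chromosome X there was 1 of the 501 peaks (0.200%, 0.00505 to 1.11), at Idh3g, a subunit of isocitrate dehydrogenase, and Ssr4, a subunit of the translocon-associated complex (3.94-fold, 9 fragments), and 34 of all 4681 peaks (0.726%, 0.504 to 1.01), with intervals that overlap.

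More than 50% of the 32-base stretches near the summit were repeated in the genome at 14 of the 501 peaks (2.79%, 1.54 to 4.64) and at 1.68% (1.27 to 2.18) of the other coding-promoter peaks. Those with every stretch repeated were the pairs of Gm3417, of Gm3448 with Ermard and of Gm3448 with Gm3435 on chromosome 17 (9.86-fold, 8.60-fold and 8.74-fold) and both peaks of Hist1h2an and Hist1h2bp.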
